A study of Mus musculus with 12 samples.

Results

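The 9 genes described here encode components of the perineuronal net: the lecticans Acan, Bcan, Ncan and Vcan, the link proteins Hapln1, Hapln2 and Hapln4, the cross-linking glycoprotein Tnr and the receptor phosphatase Ptprz1. They were chosen by name, 9 of 21883 protein-coding genes in a RefSeq table of the mouse assembly GRCm38.p6 (mm10), and the measure taken was the set of open chromatin regions at each locus, meaning the annotated gene span with 10 kb on each side. Open chromatin was mapped with ATAC-seq, an assay whose transposase cuts accessible DNA and tags it for sequencing. The cells were sorted from the infralimbic prefrontal cortex of male C57BL/6 mice aged 10 to 12 weeks and carried both NeuN, a nuclear protein of neurons, and Arc, a protein that neurons make after strong activity. Fear conditioning, given to every animal of both groups, consisted of 3 tones (120 s, 80 dB, 16 kHz) each paired with a foot shock (1 s, 0.7 mA). A day later the extinction (EXT) animals heard 60 tones in a different context, the retention control (RC) animals were kept there for as long without tones, and tissue was collected at once. Each library was made from 50000 cells of 5 pooled mice, so a replicate is a pool and no animal was measured alone.

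Of the 12 libraries of the series, the ATAC-seq peak lists of 4 were used. EXT replicate 3, marked in the labels as left out for low yield, was not analysed here. Complete lists, always given in the same order, are those of RC replicate 3 (97961 peaks from 73.8 M tags), EXT replicate 1 (80735 peaks from 65.0 M) and EXT replicate 2 (123375 peaks from 57.7 M). The list of RC replicate 1, from 69.1 M tags, ends on chromosome 1 at position 166286196 as held here and so reaches only Tnr, and that of RC replicate 2 ends before every locus and was not used. Away from chromosome 1 a single RC library therefore stands beside a pair of EXT libraries, and no test between the groups exists. The libraries differed in ways that do not follow the groups: median peak width was 255 bp in RC replicate 1, over its part of chromosome 1, and 242 bp in EXT replicate 2, against 204 bp in RC replicate 3 and 206 bp in EXT replicate 1. The commonest widths in every list were 150 bp, the length to which tags were extended, and 160 bp. Peaks of 150 to 161 bp, called narrow here, made up 37.2%, 35.0% and 28.3% of the complete lists. Fold enrichment is the authors' ratio of a peak's tag pileup to the local background of its own library, and a percentile is the rank of a peak by -log10 p within its own list, so neither can be compared as a level between libraries. A site open in fewer cells and a site less open in each cell cannot be told apart in such bulk samples.

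Perineuronal nets are lattices of extracellular matrix that enclose the cell body and proximal dendrites of certain neurons, in cortex mainly fast-spiking interneurons that express parvalbumin. Hyaluronan chains made at the cell surface bind the lecticans, which are chondroitin sulfate proteoglycans, link proteins hold that bond together, and Tnr joins lecticans to each other at their other end. Nets form late in development and limit plasticity, and their enzymatic removal is a widely used way to alter fear memory in rodents. Several components are made outside the enclosed neuron: Bcan, Vcan and Ptprz1 are well known in glial cells and their precursors, and Hapln2 in oligodendrocytes.

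The promoter sequences of 4 members are shown because the pair with a start peak is poor in CpG and the pair without one is rich in it. They were picked for this contrast, which the other members do not follow. Vcan, Hapln1 and Hapln2 are poor in CpG and had no start peak, and Bcan is rich in it and had one in EXT replicate 2. Ncan and Tnr had a peak at the transcription start, and their capitals mark the bases that lay under the start peak of every list that had one (all 3 complete lists for Ncan, and RC replicate 1, RC replicate 3 and EXT replicate 2 for Tnr). Acan and Ptprz1 had none in any complete list, and their capitals mark GC boxes (GGGCGG on either strand). Each run holds the 250 bases before the start, 5′ to 3′ on the strand of the gene, from RefSeq on GRCm38.p6.
Ncan (chr8:70120845-70121094, minus strand): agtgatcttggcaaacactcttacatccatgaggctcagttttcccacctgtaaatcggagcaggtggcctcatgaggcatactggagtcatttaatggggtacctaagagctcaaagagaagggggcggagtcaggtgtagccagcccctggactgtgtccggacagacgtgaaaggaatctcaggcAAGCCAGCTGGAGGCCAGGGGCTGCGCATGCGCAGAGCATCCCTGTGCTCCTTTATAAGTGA
Tnr (chr1:159523519-159523768, plus strand): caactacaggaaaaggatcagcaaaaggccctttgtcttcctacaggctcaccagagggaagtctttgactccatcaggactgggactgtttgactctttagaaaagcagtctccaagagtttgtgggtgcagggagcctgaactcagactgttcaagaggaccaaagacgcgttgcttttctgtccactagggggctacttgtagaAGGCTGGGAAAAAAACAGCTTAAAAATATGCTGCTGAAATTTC
Acan (chr7:79052976-79053225, plus strand): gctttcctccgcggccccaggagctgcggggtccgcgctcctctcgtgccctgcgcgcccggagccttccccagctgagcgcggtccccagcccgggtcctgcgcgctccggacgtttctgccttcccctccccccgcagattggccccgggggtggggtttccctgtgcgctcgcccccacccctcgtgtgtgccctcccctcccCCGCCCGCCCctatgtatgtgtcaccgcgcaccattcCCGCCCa
Ptprz1 (chr6:22875252-22875501, plus strand): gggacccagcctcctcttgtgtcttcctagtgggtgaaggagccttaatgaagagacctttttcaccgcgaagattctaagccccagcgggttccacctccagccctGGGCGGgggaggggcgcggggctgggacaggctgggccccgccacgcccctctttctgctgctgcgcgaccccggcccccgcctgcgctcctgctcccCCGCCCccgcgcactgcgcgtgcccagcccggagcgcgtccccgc
The capitals of Ncan run for 62 bases and those of Tnr for 43. The Acan and Ptprz1 stretches hold 3 and 2 GC boxes, and the first pair of boxes in Acan overlap. In number of CpG dinucleotides over these 250 bases, Acan has 26 and Ptprz1 22, against 6 in Ncan and 2 in Tnr.

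Most net genes had no called peak at the transcription start in these sorted neurons, which does not show that the start is closed. A start peak, here a peak that overlaps the 1 kb either side of the listed start by at least 1 bp, was present for Ncan and Tnr in RC replicate 3, for Ncan alone in EXT replicate 1, and for Ncan, Tnr and Bcan in EXT replicate 2. These are 2, 1 and 3 of the 8 members with a listed start, where 55.4%, 53.6% and 60.1% of 17491 protein-coding genes had one. Of these 8, Ncan was the only member with a start peak in all 3 lists, a state found for 49.9% of protein-coding genes. Hapln4 has no listed start and could not be scored, though all 3 lists had a peak within 1 kb of its lower annotated end. Acan, Vcan, Hapln1, Hapln2 and Ptprz1 had none in any of the 3, as did 37.5% of protein-coding genes. Without narrow peaks, the start peaks of Bcan and Tnr in EXT replicate 2 were gone, leaving 2, 1 and 1. With peaks of -log10 q of at least 5 alone the counts were 1, 0 and 2. Ncan was left in RC replicate 3, and Ncan and Bcan in EXT replicate 2, so Tnr had none. Without this limit, a peak at either annotated end of the gene was counted for 3, 3 and 4 of all 9 members. No start followed the pattern of both EXT lists without RC replicate 3, found for 2.00% of protein-coding genes, or the reverse, found for 0.680%.

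The members with CpG-rich promoters were not those with start peaks in more than 1 list. Promoters of 300 bases (250 before the start and 50 after) were called CpG-rich where the observed over expected CpG ratio was at least 0.6 and GC content at least 50%. CpG-rich starts had a start peak in 86.1%, 85.1% and 91.4% of 9599 cases in the 3 complete lists, and the 11663 other starts in 28.1%, 25.4% and 32.7%. Among the members Acan (74.0% GC, ratio 0.795), Ptprz1 (71.7%, 0.767) and Bcan (64.0%, 0.886) were CpG-rich. Acan and Ptprz1 had no start peak in any complete list, which held for 6.46% of CpG-rich starts, and Bcan had a single narrow one. The members with start peaks in more than 1 list, Ncan (56.7% GC, ratio 0.381) and Tnr (48.0%, 0.179), fell in the other class, as did Vcan (0.441), Hapln1 (0.136) and Hapln2 (0.0987). Exact matches were counted on both strands of the same 300 bases. GGGCGG, the GC box, occurred in Acan 3 times, in Vcan and Ptprz1 2 times each and in Bcan and Ncan 1 time each, and 46.2% of 21262 promoters held it. TATAAA occurred in Ncan alone (12.6% of promoters) and ACAAAG, a Sox core, in Tnr alone (16.8%). TGANTCA (6.99% of promoters), TGACGTCA (2.23%) and CACGTG (7.84%), the AP-1, CRE and E-box letters, occurred in none of the 8. A match describes these letters and does not show that a factor binds there.

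Peak density spread widely among the 9 loci. Ncan held 16.7, 16.7 and 18.8 peaks per 100 kb in the 3 complete lists, at the 93.2nd, 96.0th and 93.0th percentile of all protein-coding loci. Hapln4, whose window overlaps that of Ncan, held 14.6, 11.0 and 18.3, and Tnr 10.7, 8.18 and 12.6. Every peak counted for Hapln4 was counted for Ncan as well, so the densities of Hapln4 and Ncan are not independent. The median locus held 6.11, 4.93 and 7.60. Acan (3.66, 2.44 and 4.89), Hapln1 (1.10 in each list), Vcan (0.928, 0 and 0.928) and Ptprz1 (0, 0.506 and 0.506) lay below that median in every complete list. Bcan (2.89, 2.89 and 11.5) and Hapln2 (3.71, 3.71 and 11.1) lay below it in RC replicate 3 and EXT replicate 1 and above it in EXT replicate 2. In EXT replicate 2 a peak counted for Bcan lies within the neighbouring gene Nes, and a peak counted for Hapln2 overlaps the lncRNA gene Gm19439. Over the 3 libraries the range of Hapln4 overlapped those of Ncan and Tnr, the ranges of Ncan and Tnr did not overlap, and each of these 3 genes exceeded Acan, Vcan, Hapln1 and Ptprz1 in every library.

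**Figure D1:**
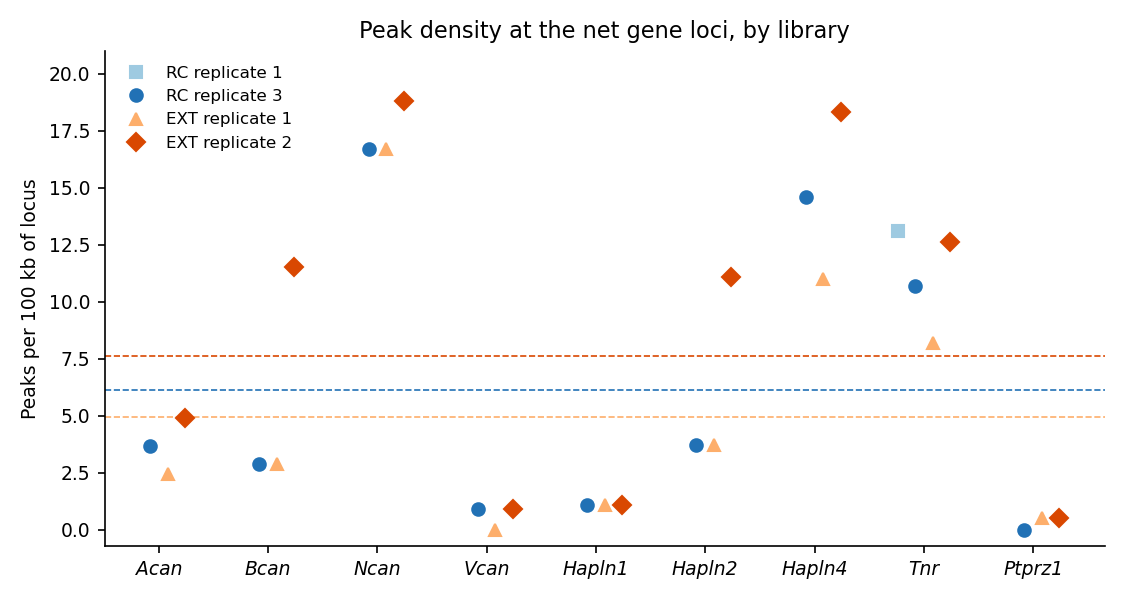
Peaks per 100 kb of locus (vertical axis) for the 9 net genes (horizontal axis), with 1 point per library; RC replicate 1 appears at Tnr only, and dashed lines give the median over 21883 protein-coding loci in the complete list of the same colour (6.11 in RC replicate 3, 4.93 in EXT replicate 1, 7.60 in EXT replicate 2). Ncan, Hapln4 and Tnr lie above the line of each library, and Acan, Vcan, Hapln1 and Ptprz1 below it. Every Hapln4 peak is also counted for Ncan.

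Acan, the lectican taken as the defining proteoglycan of the net, had few peaks along its 61.9 kb (chr7:79053226-79115099, plus strand) and none at its start. RC replicate 3 held 3 peaks in the locus, EXT replicate 1 held 2 and EXT replicate 2 held 4. Inside the gene, a peak of 160 bp at chr7:79061115-79061274, 8.0 kb into the gene, had the same bounds in RC replicate 3 (fold 4.04, 42.7th percentile) and EXT replicate 2 (fold 7.29, 72.6th percentile). Another 160 bp peak at chr7:79067231-79067390 had the same bounds in RC replicate 3 (fold 5.78, 69.3rd percentile) and EXT replicate 1 (fold 10.5, 94.8th percentile). Neither was in all 3 lists, and each joined the RC library to a different EXT library. The one region that all 3 lists shared, chr7:79124152-79124767 in its full extent, lies beyond the far end of Acan and within Hapln3, the link protein gene next to it. Without narrow peaks the Acan locus kept 0, 1 and 2 peaks in the 3 complete lists, and none inside the gene in any of them. The 3 protein-coding genes whose percentiles of covered length over the 3 complete libraries lay nearest to those of Acan (28.6, 39.2 and 32.0) were Rhoj, Dnajc24 and Afg1l, at distances of 0.945, 1.52 and 1.79 percentile points.

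Bcan, or brevican, the most abundant lectican of the adult brain, spans 14.6 kb (chr3:87987531-88002175, minus strand). RC replicate 3 and EXT replicate 1 held 1 peak each in its locus and EXT replicate 2 held 4. Of these 4, chr3:87978577-87978774 (fold 3.71, 29.8th percentile) lies within the neighbouring gene Nes. Another, chr3:87986877-87987164 (fold 3.69, 40.1st percentile), lies just beyond the lower end of Bcan. The peak of RC replicate 3 at chr3:87995478-87995627, 4.75 kb into the gene (fold 2.55, 11.1st percentile), was covered by one of EXT replicate 2 at chr3:87995468-87995627 (fold 3.93, 57.2nd percentile) and was missing from EXT replicate 1. The start peak of EXT replicate 2, chr3:88000875-88001029, was 155 bp wide with a fold of 3.23 and stood at the 29.4th percentile. Its summit lay 0.613 kb upstream of the listed start at 88000356. The single peak of EXT replicate 1, chr3:88002556-88002746 (fold 3.17, 27.3rd percentile), lay 2.28 kb upstream of that start, just outside the upper end of the annotated span and within 1 kb of it, and overlapped no other.

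Ncan, or neurocan, a lectican that neurons themselves secrete, had a called start peak in all 3 lists and several open sites within and around its 27.8 kb (chr8:70093085-70120863, minus strand). The start peak ran over chr8:70120734-70120906 in RC replicate 3 (173 bp, fold 2.63, 40.5th percentile), chr8:70120726-70120970 in EXT replicate 1 (245 bp, fold 2.03, 4.0th percentile) and chr8:70120770-70121016 in EXT replicate 2 (247 bp, fold 3.10, 60.1st percentile). It was a weak peak in EXT replicate 1, near the bottom of that list. A stronger site lay about 2.0 kb inside the gene, at chr8:70118657-70119334 in its full extent. Its peak was 678, 455 and 665 bp wide in the 3 complete lists, with folds of 4.76, 3.89 and 5.56 and percentiles of 87.4, 77.7 and 90.4. Another site of all 3 lists, 4.3 kb upstream of the start (chr8:70124945-70125343), had folds of 3.90, 3.63 and 6.18 and percentiles of 64.7, 64.0 and 89.3. Both sites ranked above the start peak in every list. Farther inside, chr8:70100173-70100933 was held by RC replicate 3 (fold 3.02) and EXT replicate 2 (fold 3.71) and not by EXT replicate 1.

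**Figure D2:**
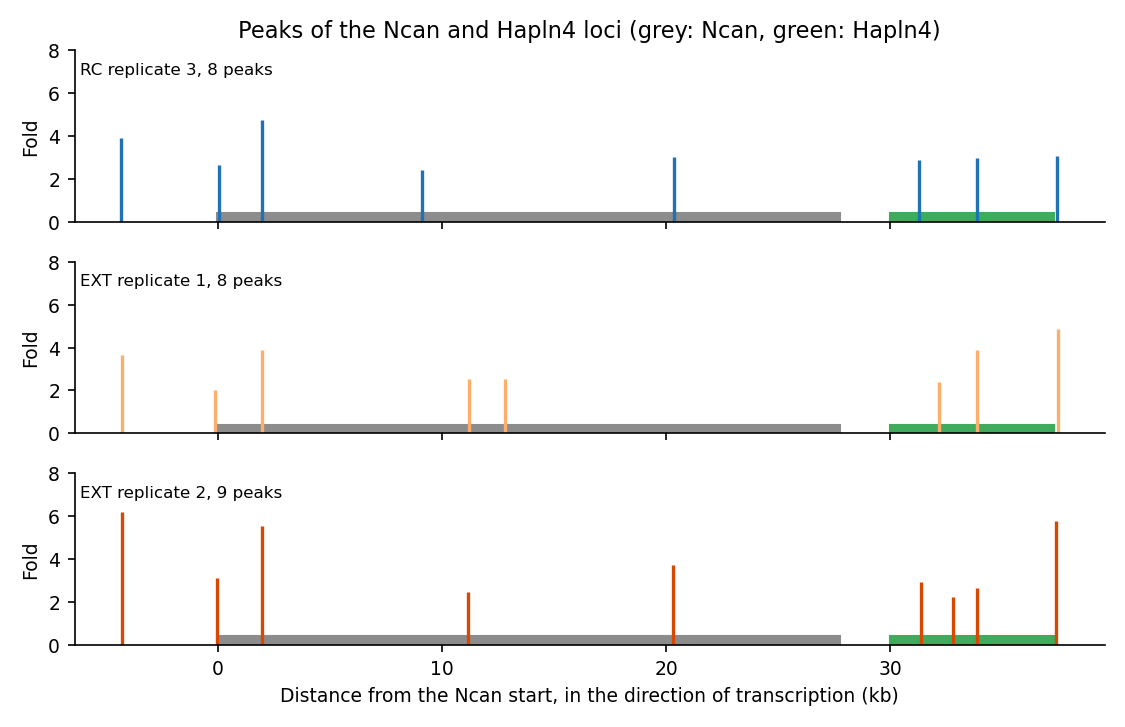
Peaks of the Ncan locus, which contains Hapln4, in the 3 complete lists: each line stands at a peak summit, its height is the authors' fold enrichment within that library (vertical axis), and the horizontal axis is the distance from the Ncan start in kb, with Ncan in grey and Hapln4 in green. Lines about 4.3 kb before the start, at the start, about 2.0 kb after it and at the far end of Hapln4 appear in all 3 lists.

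Vcan, or versican, a lectican of developing matrix and of oligodendrocyte precursors, had few called peaks over 87.7 kb (chr13:89655309-89743027, minus strand). RC replicate 3 had 1 peak, chr13:89701031-89701190 (160 bp, fold 4.91, 58.2nd percentile), EXT replicate 1 had none, and EXT replicate 2 had 1 elsewhere, chr13:89740402-89740552 (151 bp, fold 3.02, 6.5th percentile). The peaks did not overlap, and both were narrow. Of 2846 protein-coding loci at least as long, 6.89%, 9.38% and 4.78% held at most 1 peak in the 3 complete lists, and their median was 10, 8 and 12 peaks.

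Among the link proteins, Hapln1, the link protein most tied to cortical nets, had a single site. It lay 42.9 kb into the gene (chr13:89540529-89611832, plus strand) at chr13:89583459-89583618, and its bounds were the same to the base in all 3 lists. It was 160 bp wide, with folds of 10.8, 14.6 and 6.93 in the 3 complete lists. Within their lists these peaks stood at the 94.8th, 98.8th and 70.2nd percentile, the highest rank of any member peak in RC replicate 3 and EXT replicate 1. No wider peak was called anywhere in the locus. Bounds shared to the base by at least 2 lists were found for 4 of 14 regions (28.6%) held by more than 1 complete list at the 8 loci other than Tnr, for 5 of 39 (12.8%) at Tnr, and for 23.8% over all protein-coding loci.

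Hapln2, the link protein of the nodes of Ranvier, spans 6.95 kb (chr3:88020558-88027511, minus strand) and shared 1 site among the 3 lists, about 4.6 to 4.9 kb from its start at chr3:88022562-88023072. Its peaks were 202, 160 and 398 bp wide, with folds of 3.47, 3.70 and 4.80 in the 3 complete lists. EXT replicate 2 added 2 narrow peaks upstream. Hapln4, a link protein that works with Bcan at synapses on certain neurons, spans 7.33 kb (chr8:70083529-70090862) beside Ncan, with 2222 bp between the genes. It held 4, 3 and 5 peaks, all of which are counted for Ncan too. At its lower end all 3 lists had a peak: chr8:70083337-70083497 in RC replicate 3 (161 bp, fold 3.09, 49.7th percentile), chr8:70083206-70083497 in EXT replicate 1 (292 bp, fold 4.85, 88.0th percentile) and chr8:70083300-70083800 in EXT replicate 2 (501 bp, fold 5.78, 90.1st percentile). It was wider in both EXT lists than in the RC list, a difference with no test. No start was listed for Hapln4, so whether this peak lies at its start was not determined. A site of 150 to 153 bp inside the gene (chr8:70086841-70086993) was in all 3 lists too, at the 53.1st, 79.0th and 45.0th percentile.

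Ptprz1, a receptor phosphatase of glial precursors whose secreted form, phosphacan, binds Tnr, had no peak in RC replicate 3 over its 178 kb (chr6:22875315-23052916, plus strand). EXT replicate 1 had 1, chr6:23024998-23025147 (150 bp, fold 4.67, 58.5th percentile), and EXT replicate 2 had 1 at another place, chr6:22896515-22896738 (224 bp, fold 5.33, 54.1st percentile). The 2 peaks lay 150 and 21.1 kb from the start, so the EXT lists shared no called site.

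**Figure D3:**
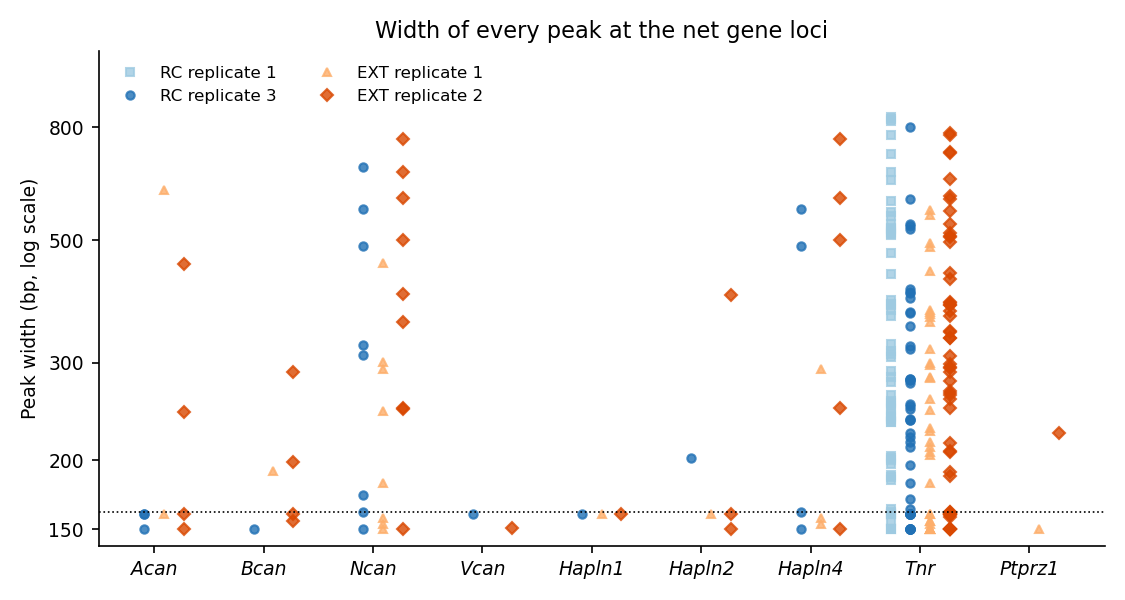
Width in bp (vertical axis, log scale) of every peak at the 9 loci (horizontal axis), with 1 point per peak, coloured by library, and a dotted line at the upper limit of narrow peaks. Every Vcan and Hapln1 peak lies at or below the line, while most Tnr peaks lie above it.

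Tnr, or tenascin-R, the trimeric glycoprotein that cross-links lecticans in the mature net, held most of the called peaks of the whole set. Its 408 kb (chr1:159523729-159931729, plus strand) and flanks held 46 of 61 peaks at the 9 loci in RC replicate 3 (75.4%), 35 of 49 in EXT replicate 1 (71.4%) and 54 of 77 in EXT replicate 2 (70.1%), and 56 in RC replicate 1. Its density stood between the 69.3rd and the 75.5th percentile of protein-coding loci in the 3 complete lists. Peaks covered 20.2 kb in RC replicate 1, 12.8 kb in RC replicate 3, 9.51 kb in EXT replicate 1 and 18.5 kb in EXT replicate 2. Without narrow peaks 48, 33, 24 and 41 were left in these libraries. RC replicate 1 and EXT replicate 2, the lists with the wider median peaks, were the highest in number of Tnr peaks, in covered length and in peaks left without the narrow ones, and each group holds one of them. Along the gene, the 4 successive stretches of 102 kb held 16, 17, 15 and 7 peaks in RC replicate 1, 8, 14, 11 and 10 in RC replicate 3, 3, 10, 13 and 7 in EXT replicate 1, and 13, 14, 15 and 10 in EXT replicate 2.

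A peak was called at the Tnr start in 3 of 4 libraries, and these peaks were weak. They ran over chr1:159523647-159524169 in RC replicate 1 (523 bp, fold 2.91, 27.6th percentile), chr1:159523599-159523915 in RC replicate 3 (317 bp, fold 2.72, 20.5th percentile) and chr1:159523726-159523875 in EXT replicate 2 (150 bp, fold 2.87, 12.8th percentile). Their -log10 q values were 5.08, 4.28 and 3.96, so only the peak of RC replicate 1 passed the stricter limit of 5. EXT replicate 1 had no peak at the start. Among 755 chromosome 1 genes with a listed start within the reach of all 4 lists, 66.4%, 61.7%, 59.5% and 67.7% had a start peak in RC replicate 1, RC replicate 3, EXT replicate 1 and EXT replicate 2. A site about 5.9 kb upstream (chr1:159517582-159518116) was in all 4 lists, with folds of 7.09, 3.61, 3.65 and 6.85 in the same order.

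The sites of Tnr that stood highest lay deep inside the gene. The region with the highest mean rank among those in all 4 lists was chr1:159716936-159717526, 193 kb from the start. Its fold was 10.5 and 6.84 in RC replicates 1 and 3 and 7.36 and 11.7 in EXT replicates 1 and 2. Within these lists the peak ranked at the 94.4th, 87.2nd, 90.6th and 96.4th percentile, and it was 530 to 564 bp wide. The next, chr1:159872817-159873374, 349 kb from the start, had folds of 5.86, 4.28, 5.16 and 8.96 in the same order. At 132 kb and 344 kb from the start lay 2 narrow peaks, chr1:159655832-159655991 and chr1:159868145-159868304, each 160 bp wide with the same bounds in RC replicate 1, RC replicate 3 and EXT replicate 2. Their folds were 12.4, 5.72 and 11.9 for the nearer and 13.2, 6.20 and 10.9 for the farther, and EXT replicate 1 held neither. These narrow peaks were singled out after their values were seen.

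**Figure D4:**
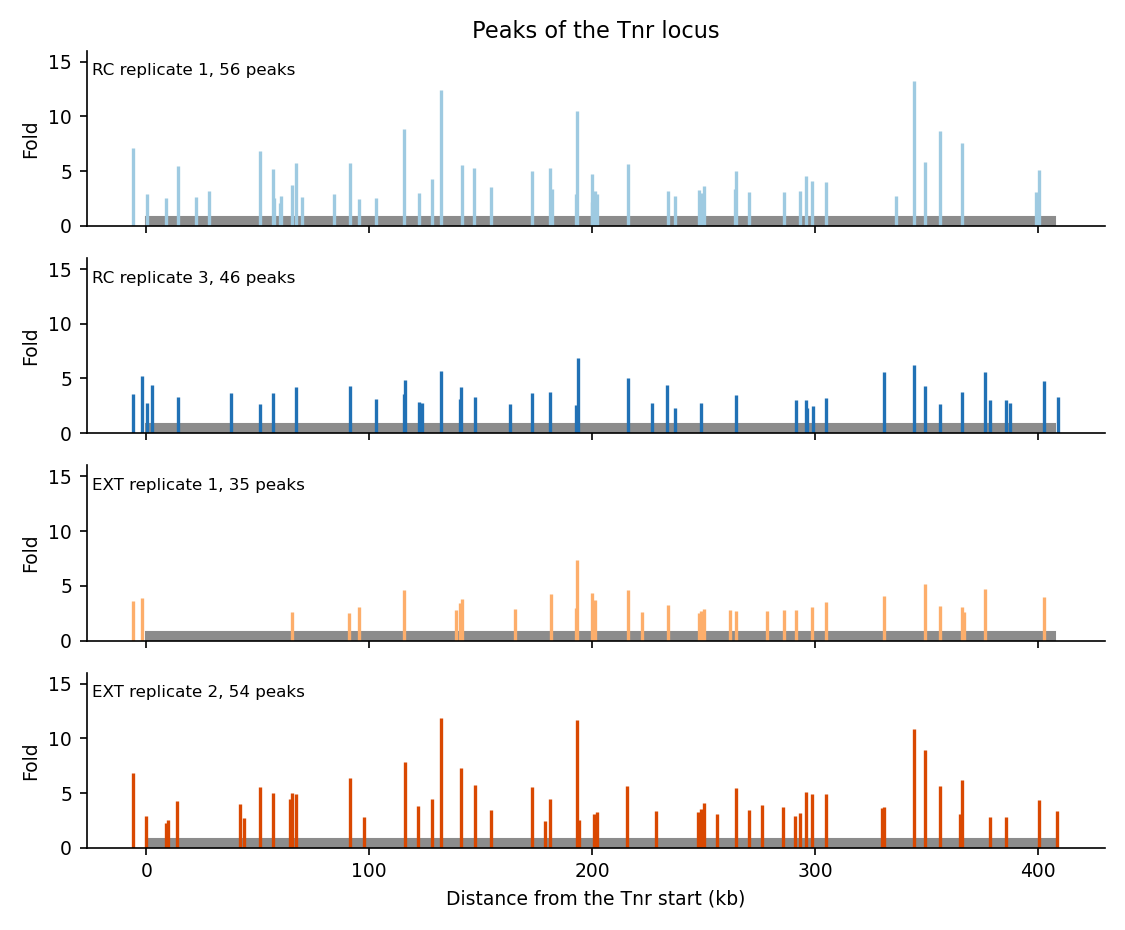
Peaks of the Tnr locus in 4 libraries: each line stands at a peak summit, its height is the authors' fold enrichment within that library (vertical axis), the horizontal axis is the distance from the Tnr start in kb, and the grey bar is the gene. The line at 193 kb is present in all 4 libraries, and the tall lines at 132 and 344 kb are absent from EXT replicate 1.

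Extinction training was compared with the control exposure first by which lists held each site. Peaks of the 3 complete lists that overlapped by at least 1 bp were merged, which gave 108 regions at the 9 loci. All 3 lists held 24 of them (22.2%), where the share over the loci of all protein-coding genes was 27.2%. Both EXT lists and not RC replicate 3 held 6 (5.56%, against 4.25%), and RC replicate 3 alone held 13 (12.0%, against 11.5%). These shares lie near those of all loci. Of the regions in both EXT lists and not RC replicate 3, 5 were in Tnr and 1 in Ncan, and those in RC replicate 3 alone were 11 in Tnr, 1 in Ncan and 1 in Vcan. The Ncan region of the EXT lists, chr8:70109448-70109803, had folds of 2.52 and 2.47 at the 24.5th and 17.8th percentile. None of these EXT or RC regions lay within 1 kb of a start or stood above the 90th percentile of a list. EXT replicate 2, the longest list, alone held 30 regions (27.8%, against 28.2%) and EXT replicate 1 alone 12 (11.1%, against 9.81%). RC replicate 3 shared 17 with EXT replicate 2 alone (15.7%, against 12.8%) and 6 with EXT replicate 1 alone (5.56%, against 6.30%), so these shares too lay near those of all loci.

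**Figure D5:**
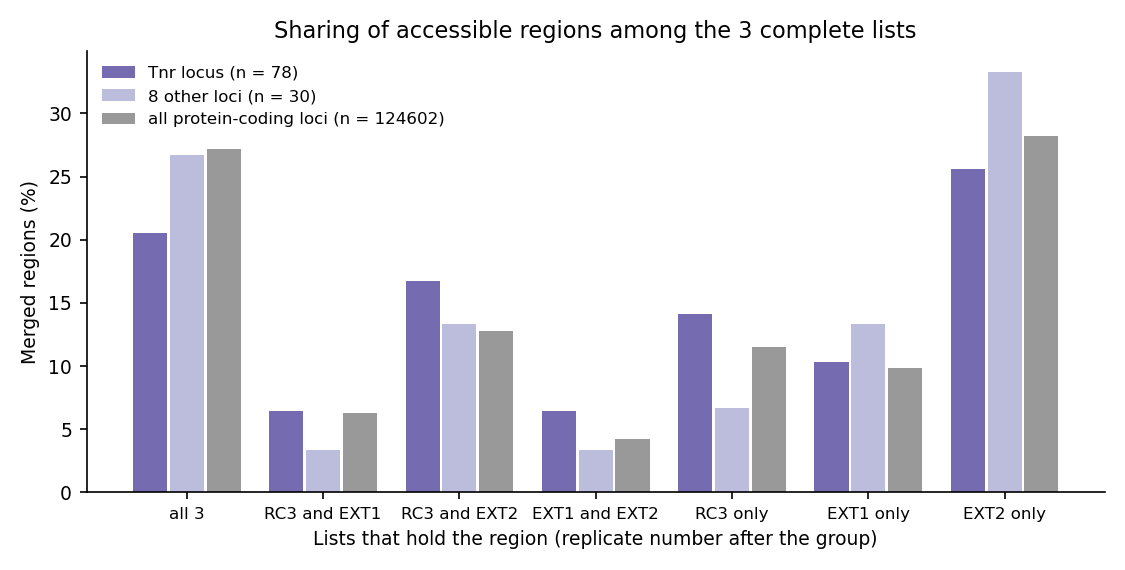
Percent of merged regions (vertical axis) by the complete lists that hold them (horizontal axis), for the Tnr locus, the 8 other net loci and the loci of all protein-coding genes. Regions in both EXT lists and not RC replicate 3 make up 6.41% at Tnr, 3.33% at the other loci and 4.25% over all loci.

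At Tnr the second RC library changed the count of EXT sites. Among 89 regions merged over 4 lists, no region was held by both EXT lists and neither RC list, where the share over chromosome 1 loci was 0.837%. The 5 regions that RC replicate 3 lacked were all present in RC replicate 1. Both RC lists and neither EXT list held 2 regions (2.25%, against 1.63%), and all 4 lists held 14 (15.7%, against 19.4%). RC replicate 1 and EXT replicate 2, from different groups, shared 7 that the others lacked (7.87%, against 10.5% over chromosome 1 loci).

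Since 2 libraries of each group reach Tnr, its number of peaks could be tested between the groups. Per 1000 peaks of the list on the shared part of chromosome 1, it was 8.68 and 9.10 in RC replicates 1 and 3 and 8.26 and 8.30 in EXT replicates 1 and 2. The groups did not overlap on this scale, with RC at 8.89 ± 0.295 and EXT at 8.28 ± 0.0224 (SD, n = 2 each), a log2 difference of -0.10. The two-sided exact permutation p was 0.333, the smallest that 6 splits of 4 libraries allow, so the design cannot reach 0.05. With lists cut to equal length the groups overlapped on the same scale, at 8.26 and 7.79 in RC and 8.26 and 7.08 in EXT (exact permutation p = 1.00). The separation with RC higher was found for 13.8% of 933 chromosome 1 loci, and with EXT higher for 9.86%. Without scaling the groups overlapped, with 56 and 46 peaks in RC and 35 and 54 in EXT (log2 difference -0.22, exact permutation p = 0.667), and unscaled numbers separated with RC higher at 5.14% of the chromosome 1 loci and with EXT higher at 1.93%.

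Genes around the net were described by the same start peaks, in lists taken from general knowledge. Of 18 other net matrix genes and binding partners, 13 had a listed start, and 6, 6 and 8 of these had a start peak in the 3 complete lists, near the 55.4%, 53.6% and 60.1% of all genes. Ptprs, a receptor for chondroitin sulfate chains, had one in all 3 lists at a mean percentile of 99.0, and so did Crtac1, a secreted matrix protein, at 89.1, while Bgn and Cspg4, further proteoglycans, had none. Enzymes of chondroitin sulfate synthesis, which build the sugar chains that lecticans carry, had 12, 14 and 15 of 17. The sulfotransferase gene Chst12 (mean percentile 99.0) and Csgalnact2 (93.0), which starts the chain, had one in all 3, and Chst13 and Chst7 in none. Enzymes that cut the net and protease inhibitors had 5, 3 and 4 of 12. The inhibitor gene Timp2 had one in 3 lists, the protease gene Adamts9 in 2, and Ctss and Hyal1 in none.

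Markers of the cells that make or carry nets were read in the same way, beside the 55.4%, 53.6% and 60.1% of all genes with a start peak. Excitatory neuron markers had a start peak for 8, 8 and 9 of 9 genes in the 3 complete lists; Neurod1, Fezf2 and Emx1 had one in all 3 lists and Neurod2 in 1. Fast-spiking interneuron markers, of the class that nets most often enclose, had 5, 5 and 7 of 12 (41.7%, 41.7% and 58.3%), with the potassium channel gene Kcnc2 and the transcription factor gene Lhx6 in all 3 and Gad1 and Gad2 in none. Astrocyte markers had 6, 5 and 5 of 10 (60.0%, 50.0% and 50.0%), with Gjb6 and Slc4a4 in all 3 and Gfap and Aldh1l1 in none. Oligodendrocyte precursor markers had 1, 1 and 2 of 6, with Pdgfra in all 3, Lhfpl3 in 1 and Cspg4 and Matn4 in none. Oligodendrocyte markers had 1, 1 and 2 of 8, with Cnp in all 3, Mag in 1 and Cldn11 and Ermn in none, and microglia markers such as Aif1 and C1qb had 0 of 5 in each list. Of the members well known in glial cells, Vcan, Ptprz1 and Hapln2 had no start peak in the 3 complete lists. Bcan had a narrow one in EXT replicate 2. Acan and Hapln1 had none, as did 37.5% of protein-coding genes. Shares near that of all genes, such as those of the astrocyte and interneuron lists, say nothing of which cells the pools held, and the part of cell makeup in the members' values was not tested.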

How the data were processed

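ATAC-seq peak lists of RC replicates 1 and 3 and EXT replicates 1 and 2 were analysed. EXT replicate 3, the RC replicate 2 list and the lncRNA capture libraries were not analysed here. The authors called peaks per library with MACS2 2.2.4, per the file headers, with no control library, a tag shift of -75 bp, an extension of 150 bp, duplicates kept and a q cutoff of 0.05. Since duplicates stayed in, a peak may stem from few molecules. The submitters' processing notes name mm10, and the aligner used for ATAC-seq is not given in the sources used. The deposited pileup is a coverage signal at the summit, the deposited fold enrichment is a ratio to local background, and the deposited −log10 p ranked peaks within a list. An incomplete last line of the RC replicate 1 list was dropped. Samples were grouped by title. The name of the list used for EXT replicate 2 bears a different replicate number from that sample's title, and the title was followed. Positions are 1-based.

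Gene spans came from RefSeq on GRCm38.p6, and starts and strands from its promoter table, which matched 17491 of 21883 protein-coding genes and 8 of 9 members (Hapln4 not among them). Peaks were joined to loci and merged with Python 3.11.15, pandas 2.3.3 and numpy 2.4.6, in code tested on simulated peaks. The exact permutation test took every split of the libraries, with numpy. The p-values measure the spread between pools. Members and gene lists were chosen with earlier results of these data known. All members were named. Of each other list, at most 2 genes with start peaks in most and 2 in fewest complete lists were named. Ties were taken by mean percentile for most and by alphabet for fewest. Also named were the 3 genes most like Acan in covered length and, of regions in all lists, at most 2 a gene by mean rank. Regions of 1 group only were to be named if within 1 kb of a start or above the 90th percentile, and none met this rule. Other peaks were described outside these rules, among them the upstream Tnr site in all lists and the Ncan region of the EXT lists. Alternatives were a stricter −log10 q (at least 5), equal list lengths, summits, other windows, flanks and overlaps, other scalings, leaving out libraries and, chosen after seeing the data, leaving out narrow peaks and using either gene end.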

Additional observations from a re-analysis of the deposited data

How the results depend on the processing

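For 10 results 78 alternative values were computed, and 19 counts or differences moved by over 1.5 times or by more than the spread between the EXT libraries. The Tnr difference was compared by its sign and its side of the threshold, which this design cannot pass. With peaks of −log10 q of at least 5 alone, the start peaks of the members over the 3 complete lists fell from 6 to 3, peaks at the 9 loci from 61 to 40 in RC replicate 3 and from 49 to 27 in EXT replicate 1, regions in all 3 lists from 24 to 15, those in both EXT lists and not RC replicate 3 from 6 to 1, and those in RC replicate 3 alone from 13 to 4. Either annotated end of all 9 genes, in place of the listed start, gave 10 start peaks. Lists of equal length gave 46 peaks in EXT replicate 2 in place of 77, and 8 regions in RC replicate 3 alone. Without narrow peaks, 40 peaks were left in RC replicate 3, 31 in EXT replicate 1 and 8 regions in RC replicate 3 alone. The EXT less RC number of peaks per 1000 list peaks, -0.00718, was 0.0186 with lists of equal length, -0.0196 with no flank, -0.0440 without narrow peaks, and -0.0158 to 0.00142 without either EXT replicate, so its sign was not fixed.

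Leaving out either EXT replicate gave 31 to 41 regions in every remaining list, 18 to 36 in EXT and not RC, and 19 to 30 in RC and not EXT, since fewer lists had to meet each rule. The larger number in EXT and not RC, 36, came without EXT replicate 1. The start peak difference between groups, 0, was -1 to 1 in the same way. The Tnr log2 difference of -0.10 ranged from -0.14 to -0.068 without each library and from -0.28 (covered length) to -0.069 (lists of equal length, exact permutation p = 1.00) otherwise. No paired analysis was possible because the libraries that reach Tnr share replicate number 1 alone between the groups, and elsewhere RC replicate 3 has no EXT partner. The lists give no read counts per region, so a missing peak shows that none passed the authors' threshold at this depth and not that a site is closed.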
